A study of Mus musculus with 6 samples.

Results

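The insulin-like growth factor (IGF) family examined here comprises 10 genes, the ligands Igf1 and Igf2, the receptors Igf1r and Igf2r, and the binding proteins Igfbp2, Igfbp3, Igfbp4, Igfbp5, Igfbp6 and Igfbp7. They were taken by gene symbol from a table of 54532 genes. All 10 were present, and all 10 passed the filter on low counts that left 14973 genes for testing. Messenger RNA had been sequenced from gastrocnemius, a fast-twitch calf muscle, of C57BL/6J mice aged 3 months. The 3 libraries labelled MP came from mice of the genotype Mck cre; Tg Glut1-Hk2-Pfkfb3, and the 3 labelled Ctrl from mice of the genotype Mck cre. All mice therefore carried Cre under the muscle creatine kinase promoter, which is active in striated muscle, and the label gives doxycycline at 0.2% in the water from 4 weeks of age for both groups. The labels do not state what drives the transgene, nor that each library is a different animal, so the p-values measure the spread among these 6 libraries, which may be technical.

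The libraries held 19546456 to 24665024 counts. Pfkfb3, the third gene named in the transgene, lay at 120 to 542 CPM (counts scaled to library size by the TMM method) in the libraries labelled MP and at 579 to 1585 CPM in those labelled Ctrl (edgeR adjusted p = 0.196). Slc2a1, which encodes GLUT1, lay at 8.05 to 13.5 CPM in libraries labelled MP and 12 to 23.3 CPM in libraries labelled Ctrl (edgeR adjusted p = 0.290), and Hk2 at 168 to 341 CPM and 156 to 187 CPM in the same groups (edgeR adjusted p = 0.381). No library labelled MP exceeded any library labelled Ctrl in Pfkfb3, so these counts did not show the higher level that the label would lead one to look for. They are reads assigned to the mouse genes, and whether reads of the transgene would be among them was not tested. The groups are therefore named by their labels throughout. Ctrl replicate 1 stood apart. Its correlations across genes with the other libraries ran from 0.947 to 0.961, against 0.962 to 0.988 among those, and its 9 B cell markers summed to 554 CPM, against 6.98 to 56.8 CPM elsewhere. All 12 skeletal muscle fibre markers were detected, with sums of 127567 to 164327 CPM in libraries labelled MP and 132982 to 193370 CPM in libraries labelled Ctrl. Their log2 fold changes, labelled MP over labelled Ctrl, were negative in 10 and positive in 2, with a median of -0.30, beside -0.03 over all tested genes. None had an adjusted p under 0.05 in edgeR.

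IGF1 and IGF2 are small secreted hormones related to insulin. Both activate the tyrosine kinase IGF1R, which signals through insulin receptor substrates to PI3 kinase, AKT and mTOR and promotes growth and repair of muscle, whereas IGF2R has no kinase and carries IGF2 and mannose 6-phosphate-tagged enzymes to lysosomes. The binding proteins hold IGFs in blood and tissue and are in turn cut by proteases that set the hormones free. In muscle, IGF1 is made both by fibres and by the cells between them.

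No member passed an adjusted p of 0.05 between the groups in edgeR's quasi-likelihood test with all 6 libraries, where 1.30% of all tested genes passed. At an unadjusted p under 0.05 in edgeR the count was 3 of 10 members, beside 20.8% of all tested genes. DESeq2 called 1 member, beside 7.31% of all genes, and limma-voom called 0. The 6 library values did not overlap between groups in 4 of the 10 members. Igf1, Igf2r and Igfbp4 were higher in every library labelled MP and Igfbp5 was lower in each. Of all tested genes, 27.4% did not overlap, 13.8% in the higher and 13.6% in the lower direction. For such a gene the two-sided exact permutation p is 0.1, the smallest that 3 against 3 libraries allow. The median log2 fold change of the 10 members was 0.19, beside -0.03 over all tested genes, with 6 positive and 4 negative.

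Calls on the members turned on single choices. Without Ctrl replicate 1, Igf1 and Igfbp4 passed (edgeR adjusted p = 0.0370 and 0.0243), 2 of 10 members where 13.1% of all genes passed. With scaling by library totals alone Igf2r passed (edgeR adjusted p = 0.0397), 1 of 10 members beside 1.73% of all genes. DESeq2 also called Igf2r (adjusted p = 0.0407), 1 of the 9 members to which it gave an adjusted p.

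**Figure D1:**
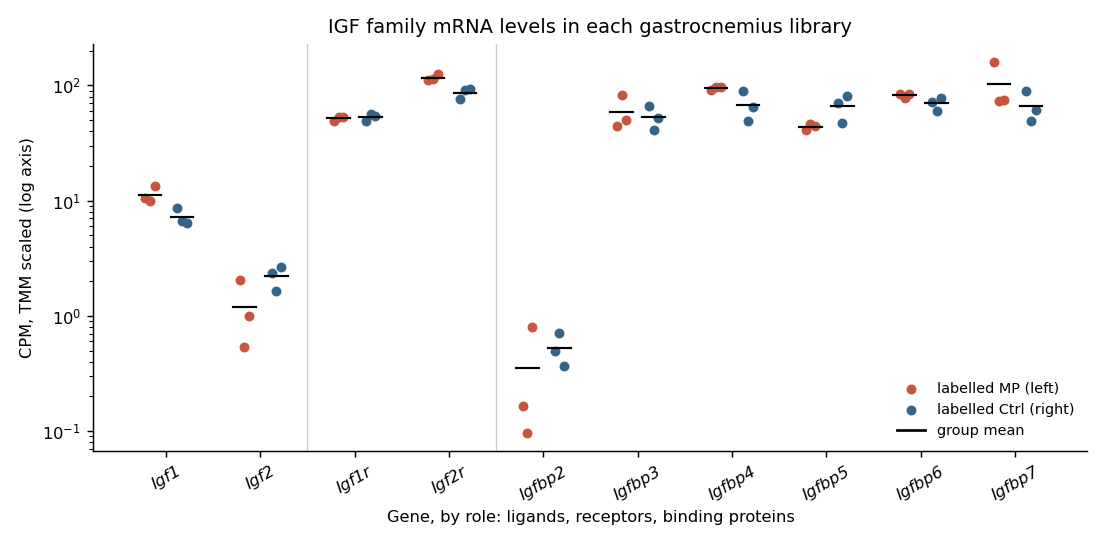
Levels of the 10 IGF family genes in CPM on a log axis, 1 point per library, with libraries labelled MP left of those labelled Ctrl and a line at each group mean. Igf1, Igf2r and Igfbp4 lie higher in all 3 libraries labelled MP and Igfbp5 lies lower, while the other 6 genes overlap.

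Levels per length were read from the deposited FPKM values (fragments per kilobase of exon, scaled to library size). In the libraries labelled MP the order of mean FPKM was Igfbp7 (84.0 ± 39.3, SD), Igfbp6 (73.5 ± 3.24), Igfbp4 (21.4 ± 0.955), Igfbp3 (18.9 ± 6.70), Igf2r (12.5 ± 0.919), Igfbp5 (7.29 ± 0.444), Igf1r (3.09 ± 0.166), Igf1 (1.14 ± 0.196), Igf2 (0.209 ± 0.135) and Igfbp2 (0.192 ± 0.212), with n = 3. Within that group the neighbours Igfbp7 and Igfbp6, Igfbp4 and Igfbp3, and Igf2 and Igfbp2 overlapped in their library values. In the libraries labelled Ctrl the means were 62.7 ± 8.06 FPKM for Igfbp6, 54.9 ± 16.9 for Igfbp7, 16.9 ± 3.90 for Igfbp3, 15.3 ± 4.51 for Igfbp4 and 11.1 ± 2.90 for Igfbp5. Igf2r followed at 9.28 ± 0.984 FPKM, Igf1r at 3.15 ± 0.239, Igf1 at 0.731 ± 0.120, Igf2 at 0.387 ± 0.0909 and Igfbp2 at 0.284 ± 0.0926. There the values of Igfbp6 and Igfbp7 overlapped, as did each neighbouring pair from Igfbp3 down to Igf2r, and Igf2 and Igfbp2. Both groups thus held far more binding protein mRNA than ligand mRNA per length. Among the 14973 tested genes Igfbp7 ranked 564 and Igfbp6 575 by mean FPKM, whereas Igf1 ranked 10992 and Igf2 13492. The level and rank of Igf2 may be understated, because most of its exon bases also belong to another annotated gene.

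Among the ligands, Igf1 (ENSMUSG00000020053, GRCm38 chromosome 10, 87858265 to 87937042, plus strand) encodes the main growth hormone-induced IGF. Its levels were 10.5, 9.89 and 13.4 CPM in the libraries labelled MP, against 8.68, 6.66 and 6.45 CPM in those labelled Ctrl. Every library labelled MP lay above every library labelled Ctrl. On the log2 scale the fold change was 0.63 ± 0.20 (SE), which is 1.55-fold with a 95% interval of 1.13 to 2.13, and did not pass over all genes (edgeR adjusted p = 0.141). Deposited counts are per gene, so the splice forms of Igf1 were not analysed here. Igf1os, an antisense gene at the locus, had 0 to 4 counts per library and shares no exon base with Igf1.

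Igf2 (ENSMUSG00000048583, chromosome 7, 142650766 to 142666816, minus strand), the paternally expressed fetal ligand, was at the low end. It had 50, 11 and 25 counts in the libraries labelled MP (2.07, 0.533 and 1.0 CPM) and 56, 35 and 58 counts in those labelled Ctrl (2.34, 1.65 and 2.67 CPM). MP replicate 1 lay within the range of the libraries labelled Ctrl and the other 2 lay below it. For Igf2 the log2 fold change came to -0.87 ± 0.45 (SE, with a 95% interval of -1.91 to 0.18, edgeR adjusted p = 0.318), and it was -1.48 without MP replicate 1. The counts, the level and the fold change of Igf2 are uncertain, because 64.5% of the exon bases of Igf2 in the GENCODE M21 annotation also belong to another gene, nearly all of them to Gm49394 on the same strand. Gm49394 had 0 counts in all 6 libraries, and how reads in shared exons were counted is not given in the sources used here. H19, the maternally expressed noncoding neighbour 72.6 kb away, averaged 853 ± 334 CPM in libraries labelled MP and 726 ± 93.3 CPM in libraries labelled Ctrl (SD, n = 3 each), with a log2 fold change of 0.23 ± 0.29 (edgeR adjusted p = 0.679).

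Of the receptors, Igf1r (ENSMUSG00000005533, chromosome 7, 67952827 to 68233668, plus strand) was the steadiest member. The signalling receptor lay at 49.2, 53.0 and 53.6 CPM in the libraries labelled MP and at 48.7, 56.2 and 53.9 CPM in those labelled Ctrl. The groups overlapped, and the log2 fold change was -0.03 ± 0.11 (SE, edgeR adjusted p = 0.912). Its 95% interval ran from -0.28 to 0.23, and with library totals as the scale the value was 0.13.

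Igf2r (ENSMUSG00000023830, chromosome 17, 12682406 to 12769664, minus strand), the clearance and lysosomal sorting receptor, was at 111, 113 and 125 CPM in the libraries labelled MP, against 76.3, 91.1 and 92.1 CPM in those labelled Ctrl. Its groups were separate, with Ctrl replicate 1 the lowest of all. On the log2 scale the fold change was 0.43 ± 0.12 (SE), or 1.34-fold with a 95% interval of 1.11 to 1.63, and the edgeR adjusted p was 0.120, the smallest of the 10 members. Within a library, where scaling cancels, the ratio of Igf2r to Igf1r counts was 2.26, 2.13 and 2.34 in libraries labelled MP and 1.57, 1.62 and 1.71 in libraries labelled Ctrl. This ratio was chosen after the values were seen and is given as a description. Airn, the imprinted antisense RNA that starts inside Igf2r, had 122 to 158 counts per library and a log2 fold change of 0.12 (edgeR adjusted p = 0.733), and it shares no exon base with Igf2r.

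The 250 bases before the RefSeq start of Igf2r (GRCm38.p6, chr17:12769707-12769956, minus strand) are shown because Igf2r had the smallest adjusted p of the members. Capitals mark CACGTG, the palindromic E-box bound by basic helix-loop-helix factors such as USF and MYC.

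Igf2r: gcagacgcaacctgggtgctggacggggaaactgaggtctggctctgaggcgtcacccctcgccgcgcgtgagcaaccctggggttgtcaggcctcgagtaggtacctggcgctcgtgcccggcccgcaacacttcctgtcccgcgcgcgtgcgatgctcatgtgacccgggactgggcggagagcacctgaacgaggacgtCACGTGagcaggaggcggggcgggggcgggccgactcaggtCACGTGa

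The 2 matches began 48 and 7 bases before the start. CACGTG occurred in 6.04% of the 32536 distinct promoter windows of the same length, and in 2 of the 14 windows listed for the members, those of Igf2r and Igfbp2. GGGCGG on either strand, the GC box of SP1, occurred 3 times in the window of Igf2r and in 33.0% of all windows. A match is a description of letters and not of binding.

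Among the binding proteins, the abundant Igfbp7 (ENSMUSG00000036256, chromosome 5, 77349240 to 77408041, minus strand) is a low-affinity IGF binder secreted by vascular endothelium. Its levels were 158, 73.4 and 74.5 CPM in the libraries labelled MP and 89.3, 48.8 and 61.5 CPM in those labelled Ctrl. MP replicate 1 stood far above the other 5 libraries, and Ctrl replicate 1 lay above MP replicates 2 and 3. For Igfbp7 the log2 fold change came to 0.62 ± 0.34 (SE, with a 95% interval of -0.19 to 1.42, edgeR adjusted p = 0.347), and 0.17 without MP replicate 1. Of its exon bases 7.03% lie on the opposite strand of Polr2b, so a small part of its reads may be shared if strand was not used.

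Igfbp6 (ENSMUSG00000023046, chromosome 15, 102144362 to 102149511, plus strand), which prefers IGF2 over IGF1 and is made by connective tissue cells, varied least among the binding proteins in the libraries labelled Ctrl relative to its level. It was at 84.1, 77.6 and 83.8 CPM in the libraries labelled MP and at 71.4, 60.4 and 78.0 CPM in those labelled Ctrl. Ctrl replicate 3 lay just above the lowest library labelled MP, so the groups overlapped. The log2 fold change was 0.23 ± 0.13 (SE, 95% interval -0.06 to 0.52, edgeR adjusted p = 0.341).

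Igfbp3 (ENSMUSG00000020427, chromosome 11, 7206086 to 7213923, minus strand), the main IGF carrier of blood plasma, was at 44.1, 83.0 and 50.5 CPM in the libraries labelled MP and at 65.9, 41.1 and 52.4 CPM in those labelled Ctrl. MP replicate 2 was the highest and Ctrl replicate 2 the lowest, with the other libraries mixed between them. The log2 fold change of 0.16 ± 0.27 (SE, 95% interval -0.47 to 0.78, edgeR adjusted p = 0.772) turned to -0.17 without MP replicate 2. Igfbp1, its neighbour 3.54 kb away on the same chromosome and not a member here, had 0 to 13 counts per library and was filtered out.

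Igfbp2 (ENSMUSG00000039323, chromosome 1, 72824503 to 72852474, plus strand) was close to the detection limit. It had 4, 2 and 20 counts in the libraries labelled MP and 12, 15 and 8 counts in those labelled Ctrl, where 3 counts correspond to 0.120 to 0.145 CPM. MP replicate 3 held most of the counts of its group. Its log2 fold change was -0.50 ± 0.69 (SE, edgeR adjusted p = 0.711), with a 95% interval from -2.11 to 1.11, so no difference was detectable at this depth. Igfbp2 lies 5.46 kb from Igfbp5 on chromosome 1, in the opposite orientation.

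Igfbp4 and Igfbp5 are both cleaved by pappalysin proteases, which also cut other binding proteins, and Igfbp5 is induced as cultured muscle cells differentiate. They differed in opposite directions. Igfbp4 (ENSMUSG00000017493, chromosome 11, 99041244 to 99054392, plus strand) was at 90.4, 96.7 and 96.4 CPM in the libraries labelled MP, against 89.3, 49.1 and 65.3 CPM in those labelled Ctrl. The groups did not overlap, although Ctrl replicate 1 came within 2 CPM of the lowest library labelled MP. The log2 fold change was 0.48 ± 0.20 (SE, 95% interval -0.00 to 0.95, edgeR adjusted p = 0.240), and 0.72 without Ctrl replicate 1.

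Igfbp5 (ENSMUSG00000026185, chromosome 1, 72857932 to 72874884, minus strand) was at 41.2, 45.9 and 44.4 CPM in the libraries labelled MP, against 70.4, 47.5 and 81.7 CPM in those labelled Ctrl. It was lower in every library labelled MP, with Ctrl replicate 2 only slightly above them. The log2 fold change was -0.60 ± 0.19 (SE), a 0.659-fold level with a 95% interval of 0.481 to 0.902, and it did not pass over all genes (edgeR adjusted p = 0.154).

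Within a library the ratio of Igfbp5 to Igfbp4 counts does not depend on scaling. It was 0.456, 0.475 and 0.461 in the libraries labelled MP and 0.789, 0.967 and 1.25 in those labelled Ctrl. The ratio averaged 0.464 ± 0.00987 in the libraries labelled MP and 1.0 ± 0.233 in those labelled Ctrl (SD, n = 3 each), and was chosen after both genes had been seen, so it has no test. The libraries labelled MP were nearly identical in this ratio, while those labelled Ctrl differed among themselves.

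**Figure D2:**
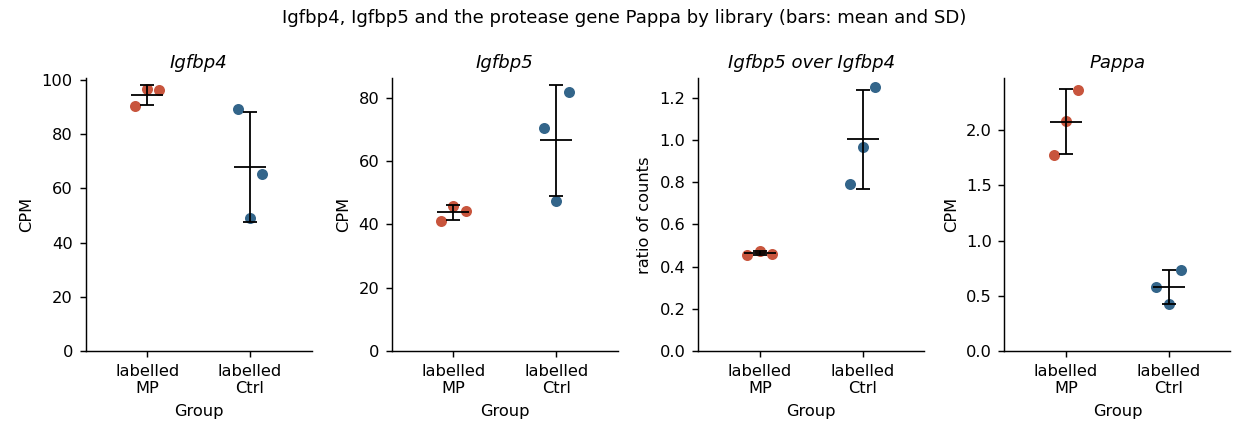
Igfbp4, Igfbp5 and Pappa in CPM and the within-library ratio of Igfbp5 to Igfbp4 counts, with 1 point per library and bars for the mean and SD of 3 libraries per group. The ratio lies between 0.456 and 0.475 in the libraries labelled MP and between 0.789 and 1.25 in those labelled Ctrl.

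The windows before the RefSeq starts of both genes are shown side by side, at chr11:99040994-99041243 on the plus strand for Igfbp4 and chr1:72874866-72875115 on the minus strand for Igfbp5 (GRCm38.p6). Capitals mark a TATAAA in Igfbp4 and a TATTTAA in Igfbp5, both forms of the TATA box that positions transcription starts.

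Igfbp4: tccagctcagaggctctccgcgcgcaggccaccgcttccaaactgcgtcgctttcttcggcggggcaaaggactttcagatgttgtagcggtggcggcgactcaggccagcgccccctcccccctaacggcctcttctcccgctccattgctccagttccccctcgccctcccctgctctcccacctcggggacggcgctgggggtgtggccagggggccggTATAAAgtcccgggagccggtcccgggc
Igfbp5: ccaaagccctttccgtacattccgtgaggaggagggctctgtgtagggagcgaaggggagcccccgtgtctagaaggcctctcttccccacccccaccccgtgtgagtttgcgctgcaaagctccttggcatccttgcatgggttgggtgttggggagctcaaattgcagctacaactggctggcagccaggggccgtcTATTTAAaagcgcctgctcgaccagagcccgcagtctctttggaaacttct

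TATAAA began 28 bases before the start of Igfbp4 and occurred, on either strand, in 12.3% of all windows. TATTTAA, searched after the sequence had been read, began 51 bases before the start of Igfbp5 and occurred in 4.16% of all windows. The windows were 69.2% G and C for Igfbp4 and 58.8% for Igfbp5, against a median of 52.4% over all windows. Neither TTCNNNGAA, the STAT5 site through which growth hormone acts, nor GTAAACA, a forkhead site, occurred in any of the 14 windows, of which 4 belong to alternative starts of Igf2. Across all windows TTCNNNGAA occurred in 7.04% and GTAAACA in 3.17%. The window of Igf1 (chr10:87860861-87861110) lay inside the span of the gene given above, as did windows of alternative starts of Igfbp2 and Igf2. That of Igfbp5 partly overlapped its gene span, which ends at 72874884. Counted from that end, TATTTAA began fewer than 51 bases before the start. Windows of 250 bases cannot show sites farther from these starts, so the absence says nothing about such sites.

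**Figure D3:**
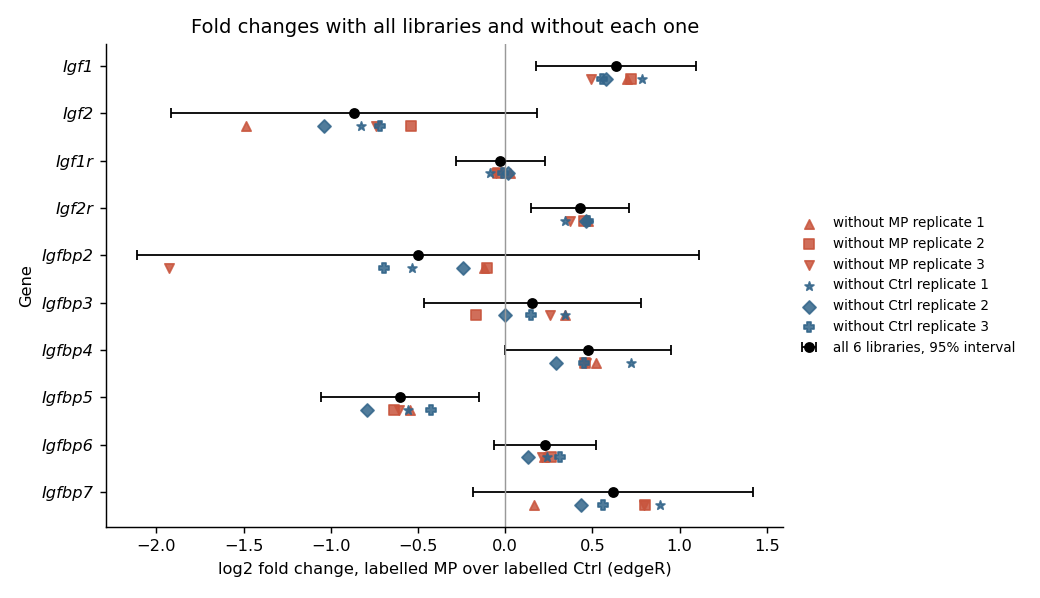
Log2 fold changes of the 10 genes, labelled MP over labelled Ctrl, with all 6 libraries (black, 95% interval) and without each library in turn (coloured markers). Igf2, Igfbp2, Igfbp3 and Igfbp7 move most with single libraries, and Igfbp3 changes side without MP replicate 2. Igf1r also changes side, to 0.026 without MP replicate 1 and 0.018 without Ctrl replicate 2.

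Added together, the 6 binding proteins summed to 245, 187 and 184 FPKM in the libraries labelled MP and to 190, 127 and 167 FPKM in those labelled Ctrl. The sums overlapped, since Ctrl replicate 1 lay above MP replicates 2 and 3. Igfbp7 and Igfbp6 made up most of the pool in every library. The share of Igfbp5 was 2.77%, 4.10% and 4.05% in libraries labelled MP and 6.13%, 6.22% and 8.17% in libraries labelled Ctrl, with no overlap. Igfbp7 took 52.7% of the pool in MP replicate 1 and between 30.6% and 38.6% in the other 5 libraries.

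**Figure D4:**
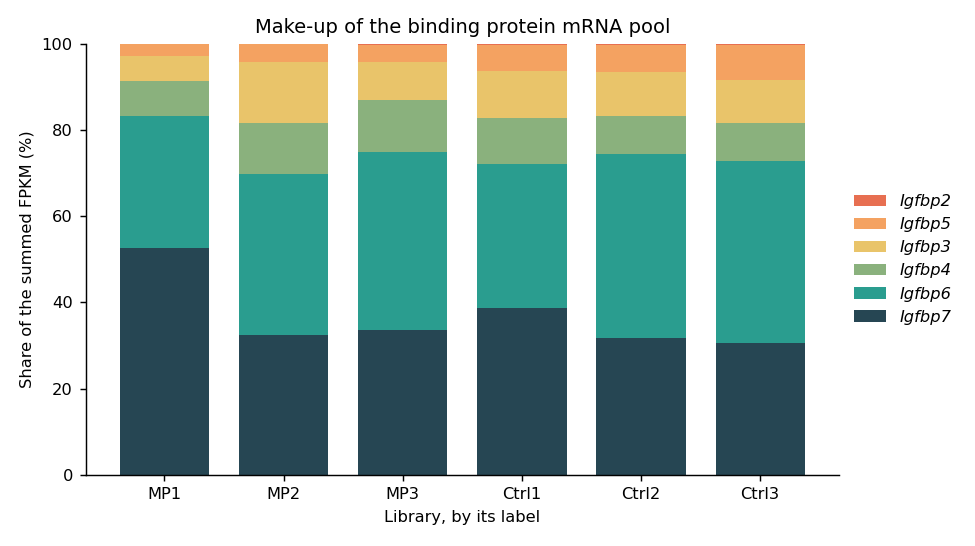
Share of each binding protein in the summed FPKM of the 6, in percent, as 1 stacked bar per library. The Igfbp5 layer is thinner in the libraries labelled MP (2.77% to 4.10%) than in those labelled Ctrl (6.13% to 8.17%), and Igfbp7 fills 52.7% of MP replicate 1.

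Other genes of the pathway were read from 5 lists. Of 12 tested genes for further binding proteins and extracellular regulators 1 passed, and it was higher. This was Pappa (chromosome 4), pregnancy-associated plasma protein A, a secreted metalloprotease that cleaves IGFBP4. Its counts were 43, 43 and 59 in the libraries labelled MP and 14, 9 and 16 in those labelled Ctrl, which is 2.07 ± 0.293 CPM against 0.582 ± 0.156 CPM (SD, n = 3 each). The groups did not overlap, and the log2 fold change was 1.82 ± 0.31 (SE, edgeR adjusted p = 0.0444). The call was lost without MP replicates 1, 2 and 3 and without Ctrl replicates 2 and 3 (edgeR adjusted p = 0.0885, 0.159, 0.190, 0.118 and 0.156), and with the replicate number as a block (0.0978), and it held without Ctrl replicate 1 (0.0236) and in 4 of 15 alternatives in all. Pappa's log2 fold change lay between 1.65 and 2.02 when single libraries were left out.

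Within the same list, Htra3, a secreted serine protease, averaged 96.5 ± 4.29 CPM in libraries labelled MP and 57.8 ± 12.2 CPM in libraries labelled Ctrl, with a log2 fold change of 0.74 ± 0.17 that did not pass (edgeR adjusted p = 0.0820). Igfals, the acid-labile subunit of the plasma complex of IGF and IGFBP3, averaged 6.44 ± 1.01 CPM in libraries labelled MP and 3.91 ± 1.78 CPM in libraries labelled Ctrl (log2 fold change 0.73 ± 0.35, edgeR adjusted p = 0.289). Both were picked out with their values in view. The list had 9 positive and 3 negative values, with a median of 0.37 beside -0.03 over all genes.

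Of 10 genes between growth hormone and Igf1 none passed, with 3 at an unadjusted p under 0.05 in edgeR (20.8% of all genes) and 2 called by DESeq2 (7.31% of all genes). Cish, a feedback inhibitor induced by STAT5, averaged 12.7 ± 3.15 CPM in libraries labelled MP and 4.04 ± 2.81 CPM in libraries labelled Ctrl (log2 fold change 1.67 ± 0.45 SE, edgeR adjusted p = 0.113). Stat5b, the transcription factor below the growth hormone receptor, averaged 311 ± 88.9 CPM in libraries labelled MP and 581 ± 112 CPM in libraries labelled Ctrl (-0.90 ± 0.25, edgeR adjusted p = 0.114). Both genes were separate between the groups, in opposite directions. Among the 28 tested genes of IGF1R and insulin receptor signalling none passed, with 8 at an unadjusted p under 0.05 and 4 called by DESeq2, beside the same 20.8% and 7.31% of all genes. Akt1, the kinase below PI3 kinase, was at 124 ± 15.8 CPM in libraries labelled MP and 69.3 ± 11 CPM in libraries labelled Ctrl (0.84 ± 0.15, edgeR adjusted p = 0.0518). Irs2, an adaptor of both receptors, was at 42.8 ± 9.48 CPM in libraries labelled MP and 89.6 ± 23.9 CPM in libraries labelled Ctrl (-1.06 ± 0.23, edgeR adjusted p = 0.0725). Without Ctrl replicate 1 this list had 1 gene higher past the threshold, Akt1, and 5 lower, where 13.1% of all genes passed. The lower ones were Irs2, the adaptor Gab1, the mTOR inhibitor Tsc1 and the forkhead factors Foxo1 and Foxo4, of which the last 4 are named from this count alone. In the growth hormone list Stat5b passed without that library, and among the extracellular regulators Htra3 did beside Pappa.

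The 5 tested genes at the Igf2 locus or for IGF2 mRNA binding and its regulators held none past the threshold in edgeR, with 3 at an unadjusted p under 0.05, beside 20.8% of all genes, and 0 by DESeq2. Ctcf, the insulator protein of the Igf2 and H19 locus, had a log2 fold change of -0.34 ± 0.12 (SE, edgeR adjusted p = 0.180), and Igf2bp2, an RNA-binding protein of Igf2 mRNA, 0.53 ± 0.22 (edgeR adjusted p = 0.231). The 5 tested genes listed as partners of Igf2r were M6pr, Gnptab, Gnptg and Nagpa of mannose 6-phosphate sorting, and Plaur, the urokinase receptor. All 5 had negative values, with a median of -0.33, none past the threshold. At an unadjusted p under 0.05 were 2, beside 20.8% of all genes, and DESeq2 called 0. Plaur was at 4.84 CPM in Ctrl replicate 1 and at 1.18 and 1.15 CPM in Ctrl replicates 2 and 3. Its mean in libraries labelled MP was 1.40 CPM. The negative value of Plaur (-0.80 ± 0.59, edgeR adjusted p = 0.475) thus rested on Ctrl replicate 1, the library that stood apart. M6pr, the smaller mannose 6-phosphate receptor, averaged 37.9 ± 2.68 CPM in libraries labelled MP and 46.9 ± 4.01 CPM in libraries labelled Ctrl (-0.31 ± 0.12, edgeR adjusted p = 0.204). Gnptab, which makes the mannose 6-phosphate tag, averaged 13.5 ± 0.726 CPM in libraries labelled MP and 17.6 ± 2.82 CPM in libraries labelled Ctrl (-0.38 ± 0.16, edgeR adjusted p = 0.227). The value of Igf2r had the other sign.

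Several members are made by cells between the fibres, and in whole-muscle RNA more cells of a type cannot be told apart from more RNA per cell. All 12 endothelial markers had a positive log2 fold change, with a median of 0.48, and summed to 614 to 1055 CPM in libraries labelled MP and 483 to 617 CPM in libraries labelled Ctrl. The highest sum was in MP replicate 1, the library with the highest Igfbp7. The smooth muscle and pericyte, adipocyte and satellite cell sums, given below, were also highest in that library. The fibro-adipogenic and macrophage sums were not. The 12 markers of fibro-adipogenic progenitors, the connective tissue cells of muscle, summed to 2756 to 3103 CPM in libraries labelled MP and 1651 to 2582 CPM in libraries labelled Ctrl. Of these, 11 were positive, with a median of 0.45. Their sum was lowest in Ctrl replicate 2, where Igfbp3, Igfbp4, Igfbp6 and Igfbp7 were also lowest. The endothelial, macrophage, smooth muscle and pericyte, and adipocyte sums were lowest in that library too. The macrophage markers were positive in 10 of 10, with sums of 161 to 204 CPM in libraries labelled MP and 83.5 to 189 CPM in libraries labelled Ctrl. Smooth muscle and pericyte markers summed to 609 to 800 CPM in libraries labelled MP and 512 to 637 CPM in libraries labelled Ctrl. Of these, 8 were positive and 2 negative, with a median of 0.56. Adipocyte markers summed to 766 to 1216 CPM and 447 to 990 CPM in the same groups. They split into 4 positive and 4 negative values, with a median of 0.11. Fabp4 was the largest part of the adipocyte sum in each library. It averaged 694 ± 305 CPM in libraries labelled MP and 348 ± 68.2 CPM in libraries labelled Ctrl. No marker of these 5 lists passed in edgeR. At an unadjusted p under 0.05 were 4 of 12 endothelial, 4 of 12 fibro-adipogenic, 2 of 10 macrophage, 6 of 10 smooth muscle and pericyte and 2 of 8 adipocyte markers, beside 20.8% of all genes. DESeq2 called 0, 3, 0, 4 and 1 of them in the same order of lists, beside 7.31% of all genes. For all these lists, their part in the values of the members was not tested. Of the 10 satellite cell markers 8 had a positive and 2 a negative log2 fold change, with a median of 0.74. They summed to 253 to 308 CPM in libraries labelled MP and 174 to 238 CPM in libraries labelled Ctrl. At an unadjusted p under 0.05 in edgeR were 6, beside 20.8% of all genes, and DESeq2 called 5, beside 7.31%. Pax7 overlapped between the groups (edgeR adjusted p = 0.214). Past the threshold in edgeR were 3 markers, all higher in libraries labelled MP, beside 1.30% of all genes. They were the calcitonin receptor Calcr (log2 fold change 2.10 ± 0.31, edgeR adjusted p = 0.0324), the integrin Itga7 (0.91 ± 0.15, edgeR adjusted p = 0.0406) and the receptor kinase Fgfr4 (1.32 ± 0.23, edgeR adjusted p = 0.0463). Fgfr4 was named after its value was known. Calcr had 34, 37 and 42 counts in the libraries labelled MP and 9, 7 and 9 in those labelled Ctrl. Itga7 is not limited to satellite cells. Its mean was 121 CPM in libraries labelled MP and 64.4 CPM in libraries labelled Ctrl, against 2.91 and 1.65 CPM for Pax7. Which cells its mRNA came from was not tested. All 3 calls were lost without MP replicate 1, 2 or 3 and without Ctrl replicate 2 or 3, with edgeR adjusted p-values of 0.0708 to 0.162 for Calcr, 0.0576 to 0.178 for Itga7 and 0.101 to 0.197 for Fgfr4. They were also lost with the replicate number as a block (edgeR adjusted p = 0.0957, 0.0870 and 0.104) and held without Ctrl replicate 1 (0.0183, 0.0190 and 0.0151).

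Likeness of pattern was measured as the root mean square difference of log2 CPM, each gene centred on its mean, over the 6 libraries and 159 tested genes of the lists. The difference was not scaled to how much a gene varied. Genes that vary little, such as Igf1r, thus lie near other steady genes whatever their pattern. The gene nearest to Igfbp7 was Pecam1, a surface protein of endothelium, at 0.10, followed by Cdh5, the endothelial cadherin, at 0.16, where the median over all candidates was 0.57. Igfbp4 was nearest to Lum, the matrix proteoglycan lumican of fibro-adipogenic progenitors, at 0.11, and to Lipe, hormone-sensitive lipase, at 0.13. Igf2r was nearest to Mtor at 0.09 and to the endothelial receptor Flt1 at 0.10, Igf1 to Igf2bp2 at 0.17 and Htra3 at 0.20, and Igf1r to Rptor and Rps6kb1 at 0.10 each. For Igfbp3 the nearest were C1qb at 0.18 and Dpt at 0.20, for Igfbp5 Gnptab at 0.19 and Ctcf at 0.21, and for Igfbp6 Shc1 at 0.11 and Grb10 at 0.12. The low genes had no close neighbour, with Irs1 at 0.41 and Myh2 at 0.44 from Igf2, and Irs2 at 0.54 and Hba-a2 at 0.70 from Igfbp2.

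**Figure D5:**
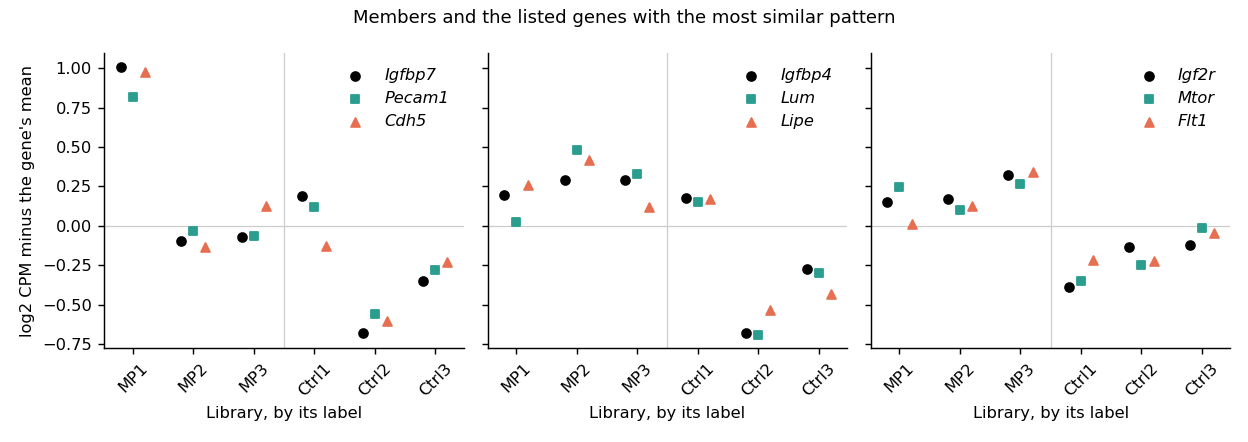
Log2 CPM minus each gene's mean over the 6 libraries, for Igfbp7, Igfbp4 and Igf2r and the 2 listed genes nearest to each, with 1 marker per gene and library. Igfbp7, Pecam1 and Cdh5 share a high value in MP replicate 1 and a low one in Ctrl replicate 2, and Igfbp4 and Lum are lowest in Ctrl replicate 2.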

How the data were processed

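Whole-muscle RNA was extracted by the authors with Trizol, and libraries were made with the NEBNext Ultra kit from 3 µg RNA, per the labels' protocols. The submitters' processing notes name HISAT2 2.0.5, featureCounts 1.5.0-p3 and GRCm38. Whether strand was used in counting is not given in the sources used here. The table deposited by the authors gives raw counts for each gene, per the file headers. In the deposited FPKM values these counts are divided by gene length and a library size. For the 10 members the deposited lengths equal the exon unions of GENCODE M21.

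The main test was edgeR's quasi-likelihood test (edgeR 4.0.16, R 4.3.3) with TMM scaling, the filterByExpr filter and legacy = FALSE, on all 6 libraries with group as the only term. P-values were adjusted by Benjamini-Hochberg over 14973 genes, with a threshold of 0.05. Log2 fold changes are labelled MP over labelled Ctrl, their errors are SE, and intervals cover 95%. Other errors are SD over 3 libraries. The members and lists were chosen with earlier results of these data known. All members are named. Each pathway list adds its genes past the threshold (at most 4) or, with none, the 2 of smallest p. Each marker list adds at most 2 genes past it, by smallest p, and each member the 2 listed genes nearest in pattern. Genes outside the rule (Fgfr4, Pax7, Plaur, Fabp4, Htra3, Igfals, H19 and those that passed without Ctrl replicate 1) were named after their values were seen. Promoter windows are from RefSeq (GRCm38.p6), where all 10 members matched by symbol. A limit of 3 counts covers counting error only. Alternatives were DESeq2 1.42.0, limma 3.58.1 with voom and on log2(FPKM + 1) and log2(FPKM + 0.1), other scalings, no filter, a replicate block and fits without each library. The script was tested on simulated data. There edgeR recovered 2 of 50 genes changed 1.5-fold and 14 of 50 changed 2-fold, so a missing call says little about changes of that size. DESeq2 recovered 6 and 25 of them. Unchanged genes made up 7 of the 102 edgeR calls and 40 of the 150 DESeq2 calls.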

Additional observations from a re-analysis of the deposited data

How the results depend on the processing

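Of 10 members, 8 kept their direction in all of up to 15 alternatives. The log2 fold change of Igf1r, -0.03 with all libraries, was 0.13 with library totals and ran from -0.084 to 0.026 without single libraries. That of Igfbp3, 0.16, ran from -0.17 to 0.34 without single libraries. The count of members past the threshold, 0 with all libraries, was 1 with DESeq2, 1 with library totals and 0 to 2 without single libraries. The cause of these shifts was not tested.

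Over all genes the count of 194 was 1065 with DESeq2, 124 with no filter on low counts, 112 with limma on log2(FPKM + 1) and 121 on log2(FPKM + 0.1). It was 0 on log2(FPKM + 1) with no filter, where 3303 genes had an unadjusted p under 0.05 in limma. It ran from 0 without Ctrl replicate 3 (2116 genes at an unadjusted p under 0.05 in edgeR) to 1956 without Ctrl replicate 1. In between were 54, 1 and 1 without MP replicates 1, 2 and 3 and 3 without Ctrl replicate 2. With library totals 79.2% of 259 calls were higher in MP, in place of 60.8%, and the median of all genes was 0.12 in place of -0.03.

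With the replicate number as a block 5 genes and 0 members passed. Same-numbered libraries did not deviate together, with correlations across genes of -0.02, -0.17 and 0.16 for numbers 1, 2 and 3, so the numbers were not taken as pairs. The values of Igf2 and Igfbp2 are limited by low counts, with 2 to 58 per library. DESeq2 gave Igfbp2 no adjusted p. The alternatives for pathway genes, satellite cell markers and lists were chosen after seeing the data.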
